A study of Mus musculus with 3 samples.

Results

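PDGFRα+CAR+ cells were compared with PDGFRα-CAR- cells, both sorted from Flk1+ mesoderm, on the 1 array of the series that carries both RNAs. It is 1 of 3 dual-colour arrays. The cells came from embryoid bodies, which are floating aggregates of differentiating mouse embryonic stem cells, grown from the line that the labels name BRC6. They were cultured for 7 days, dissociated with trypsin, stained with antibodies against Flk1, PDGFRα and CAR, and sorted by flow cytometry. RNA of 5 separate experiments was combined into 1 pool per population before labelling. On this array the PDGFRα+CAR+ pool carried Cy3 and the PDGFRα-CAR- pool carried Cy5, and no array has these dyes swapped. The third pool of the series, Flk1+PDGFRα-CAR+, was not on this array. Below, PDGFRα+CAR+ cells are called double-positive, PDGFRα-CAR- cells double-negative and PDGFRα-CAR+ cells CAR-only, all of them Flk1+. Of 27456 spots, 23474 were probe spots for 23473 distinct probes, and 23469 probes were kept after spots flagged on any of the arrays had been left out.

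Flk1 is the VEGF receptor encoded by Kdr and marks early mesoderm with vascular, blood and cardiac potential. PDGFRα is a receptor tyrosine kinase for platelet-derived growth factors. It is known from paraxial mesoderm and, together with Flk1, from mesoderm that can form heart muscle, whereas Flk1+ cells that lack PDGFRα are known for blood and endothelial potential. CAR, encoded by Cxadr, is a cell adhesion protein of tight junctions and of the developing heart, and it is the entry receptor for coxsackie B viruses and some adenoviruses. The sort thus set apart cells that differ in both PDGFRα and CAR while sharing Flk1. The probes were matched to no gene here, because no table used here pairs the identifiers of this chip with genes. The levels of Kdr, Pdgfra and Cxadr and the markers of blood, endothelial and heart cells were therefore not analysed here, and results are given per probe.

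Each population is 1 pool, and 1 array compares the pair directly, so no replicate error and no p-value exist for this comparison. The direct log2 ratio is the Cy3 over the Cy5 signal on the array that holds both pools, after normexp background correction and loess. The indirect log2 ratio is the ratio of CAR-only to double-negative cells on the first array minus that of CAR-only to double-positive cells on the third. The third array was scanned in a later run than the others. On it the double-positive pool carried Cy5, and a dye effect that is constant for a probe cancels. Both routes use the same RNA pools. Their difference therefore measures arrays, dyes and spots, and says nothing about other cultures or sorts. A probe was called above background where its signal was higher than all but 2.5% of the empty spots, on both arrays that hold a population.

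Of the 23469 probes, 14098 were above background in double-positive cells and 12663 in double-negative cells. Either population had signal for 14599 probes, which is 62.2% of those kept, and both had it for 12162. On the direct array itself 66.3% of probe spots were above the limit in Cy3 and 54.1% in Cy5. The limit was 76 in Cy3 and 35 in Cy5, where the median probe had a signal of 104 and 41. No probe was saturated, and the brightest had signals of 53013 in Cy3 and 53772 in Cy5.

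Loess centres the ratios of an array near 0, so the centre given here is in part set by the processing. With it, most probes compared differed little between double-positive and double-negative cells, and about equal numbers lay far to either side. Among the 14599 probes the median direct log2 ratio was 0.01, and 73.3% of probes were within 0.5 of 0. The middle of the distribution was narrow, with quartiles of -0.22 and 0.27. The tails were long: the 1st and 99th percentiles were -2.40 and 2.44, and the extremes were -5.87 and 6.39. Direct and indirect ratio both reached at least 2-fold for 788 probes higher in double-positive cells and 674 lower. These are 5.40% and 4.62% of the probes compared. With median centring in place of loess, 669 probes were higher and 498 lower at 2-fold.

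With loess, the numbers of probes counted fell steadily with the size of the difference and stayed close to even. At 1.5-fold, 1471 probes were higher and 1350 lower in double-positive cells. At 3-fold there were 376 and 323. At 4-fold there were 230 higher (1.58% of the probes compared) and 203 lower (1.39%). At 8-fold there were 67 higher (0.459%) and 69 lower (0.473%), and at 16-fold 21 and 17. The higher probes made up 53.9% of those counted at 2-fold, 53.1% at 4-fold and 49.3% at 8-fold. Among probes above background in both populations the counts were 146 higher and 144 lower at 4-fold. At 8-fold they were less even, with 37 higher and 54 lower.

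**Figure D1:**
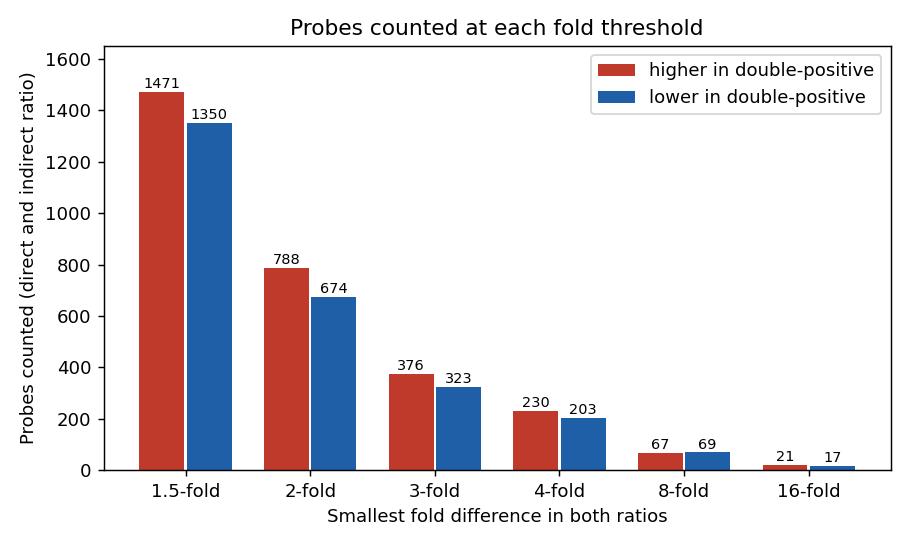
Number of probes (vertical axis) whose direct and indirect ratio both reached the fold difference on the horizontal axis, higher (red) or lower (blue) in double-positive than in double-negative cells. The bars fall from 1471 and 1350 at 1.5-fold to 21 and 17 at 16-fold, with red and blue of like height at every threshold.

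With normexp and loess, the spread between the routes was smaller than the spread of the ratios themselves. Over the 12162 probes above background in both populations, the indirect minus the direct log2 ratio had a robust SD of 0.144 and a median of -0.03, while the direct ratio had a robust SD of 0.349. The ordinary SDs, which take in the long tails, were 0.155 and 0.700. The routes differed by at most 0.5 for 99.5% of these probes and by 1 or more for 5 probes. Across these probes the Pearson correlation of the routes was 0.976 and the Spearman correlation 0.913. Both are descriptions, since probes are not replicates and the routes share their pools. The gap between the routes depended on the processing. With median centring in place of loess its median was -0.42 and its robust SD 0.287. With local background subtracted the robust SD was 0.654.

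No probe measured in both populations changed direction between the routes once it was at least 2-fold by 1 of them. By the direct ratio 1176 of these probes were at least 2-fold different. For 97 of them the indirect ratio was under 2-fold, with a median size of 0.90 on the log2 scale, and the smallest was 0.15. By the indirect ratio 1197 probes were at least 2-fold different, and 118 of them were under 2-fold by the direct ratio. At 4-fold the median sizes by the 2 routes were close. The 157 probes at least 4-fold higher by the direct ratio had a median of 2.51 directly and 2.58 indirectly. The 154 probes at least 4-fold lower had medians of -2.77 and -2.71.

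**Figure D2:**
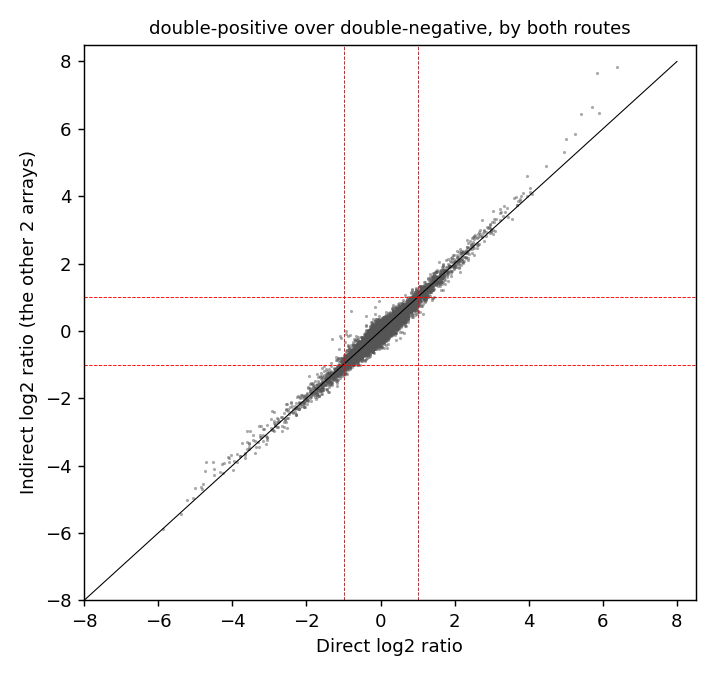
Indirect log2 ratio (vertical axis, from the other arrays) against direct log2 ratio (horizontal axis) of double-positive over double-negative cells, 1 point for each of 12162 probes above background in both populations. The black line marks equal values and the dashed red lines mark 2-fold, and points leave the line most at the upper right, where the indirect ratio exceeds the direct one.

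Empty spots and negative control spots were read by the same steps. The background step adds the same offset to both dyes, which shrinks the ratios of spots as dim as these. Their spread, and whether any reached 2-fold, is therefore in part set by the processing. It gives no measure of error for brighter probes. None of the 3836 unflagged blank and no-probe spots reached 2-fold by the direct ratio, which had an SD of 0.136 over these spots. Their median direct log2 ratio was -0.10 and their median indirect log2 ratio -0.002. The 96 negative control spots had a median direct log2 ratio of 0.01 with an SD of 0.082. One probe was printed at 2 positions, in blocks 3 and 21, and its direct log2 ratios were 0.15 and 0.08. Its indirect log2 ratios had the opposite sign, at -0.11 and -0.17.

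The share of probes that differed depended on how bright a probe was. The 14599 probes were split into 4 bins of equal size by their mean log2 intensity on the direct array. In the dimmest bin 1.56% were counted at 2-fold, and 1266 of its 3650 probes were above background in 1 population and not in the other. In the next bins 13.2% and 15.7% were counted, and in the brightest 9.56%. The robust SD between the routes hardly moved over the bins, from 0.153 in the dimmest to 0.139 in the brightest. The offset of 50 added in the background step shrinks the ratios of dim probes. The balance of directions also moved with brightness. In the dimmest bin 11 probes were higher and 46 lower, and in the third bin 335 were higher and 239 lower.

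At the bright end the direct ratios lay below 0. The brightest 1% of the probes (146) had a median direct log2 ratio of -0.30, with quartiles of -0.57 and -0.09, and 121 of them were below 0. The indirect ratio of the same probes had a median of -0.14 and quartiles of -0.34 and 0.06. Only 1 of these 146 probes was counted as higher and 2 as lower. Where the CAR-only pool carried Cy3, on the first and the third array, the same probes had medians of -0.36 and -0.22. With loess, the median of these probes thus put Cy3 below Cy5 on all 3 arrays. Double-negative cells carried only Cy5 and CAR-only cells only Cy3 in this series, and the part of the dye was not tested. With median centring in place of loess the medians were -0.06 on the direct array, 0.20 on the first and 0.69 on the third, so on the other arrays the side of 0 depended on the centring. The indirect median of these probes was -0.48 with median centring. In the authors' deposited table their median was -0.59 on the direct array and -0.30 by the indirect route.

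**Figure D3:**
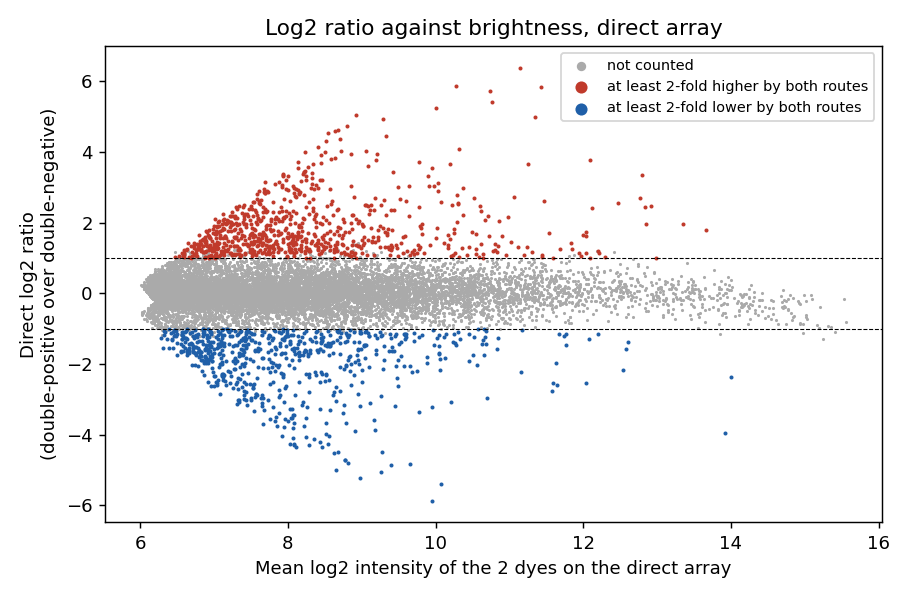
Direct log2 ratio of double-positive over double-negative cells (vertical axis) against the mean log2 intensity of both dyes (horizontal axis), 1 point for each of 14599 probes. Probes at least 2-fold higher (788, red) or lower (674, blue) by both routes are rare at the dimmest and the brightest end and spread over the range between, and the uncounted probes (grey) bend below 0 at the bright end.

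The probes that differed most were ranked by the smaller of their direct and indirect ratio, among probes above background in both populations. M200004673 was the most strongly higher probe in double-positive cells. Its deposited signal in double-positive cells was 26971 on the direct array and 10285 on the third. In double-negative cells it was 153 on the direct array and 75 on the first. Signals of CAR-only cells lay between, at 9883 and 4652. The log2 ratio of double-positive over double-negative cells was 6.39 directly and 7.83 indirectly. The direction held by both routes, while the routes differed by 1.43 in size, far beyond the robust SD of 0.144. The local background of this spot was 11361 in Cy3 on the direct array. When the local background entered normexp, the ratio was 6.03.

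M300004916 ranked next among the higher probes. Its signals in double-positive cells were 12479 on the direct array and 4434 on the third. In double-negative cells they were 87 on the direct array and 55 on the first. CAR-only cells gave 1097 and 765. The direct log2 ratio was 5.88 and the indirect one 6.46. The surroundings of this spot were also bright, with a local background of 10803 in Cy3 on the direct array, and its ratio fell to 3.93 when the local background entered normexp.

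Among the probes lower in double-positive cells, M200016163 ranked first. Its signals in double-negative cells were 5756 on the direct array and 6919 on the first. In double-positive cells they were 171 on the direct array, where the limit was 76, and 67 on the third, where the limit was 26. CAR-only cells gave 1160 and 972. The log2 ratio was -5.87 directly and -5.89 indirectly, a difference well inside the robust SD. The local background of this spot was 2420 in Cy5 on the direct array. When the local background entered normexp, the ratio was -5.60.

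M300004395 ranked second among the lower probes. Its signals were 5275 and 5580 in double-negative cells and 218 and 80 in double-positive cells. In CAR-only cells they were 1635 and 1462. The direct log2 ratio was -5.39 and the indirect one -5.43. The local background of this spot was 4417 in Cy5 on the direct array, and the ratio was -4.00 when the local background entered normexp. For each of these 4 probes the double-positive and double-negative signals did not overlap, and both CAR-only signals lay in between. The probes were ranked on these same signals, so the lack of overlap follows from how they were chosen. The signals also come from different dyes and arrays, whose scales differ.

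**Figure D4:**
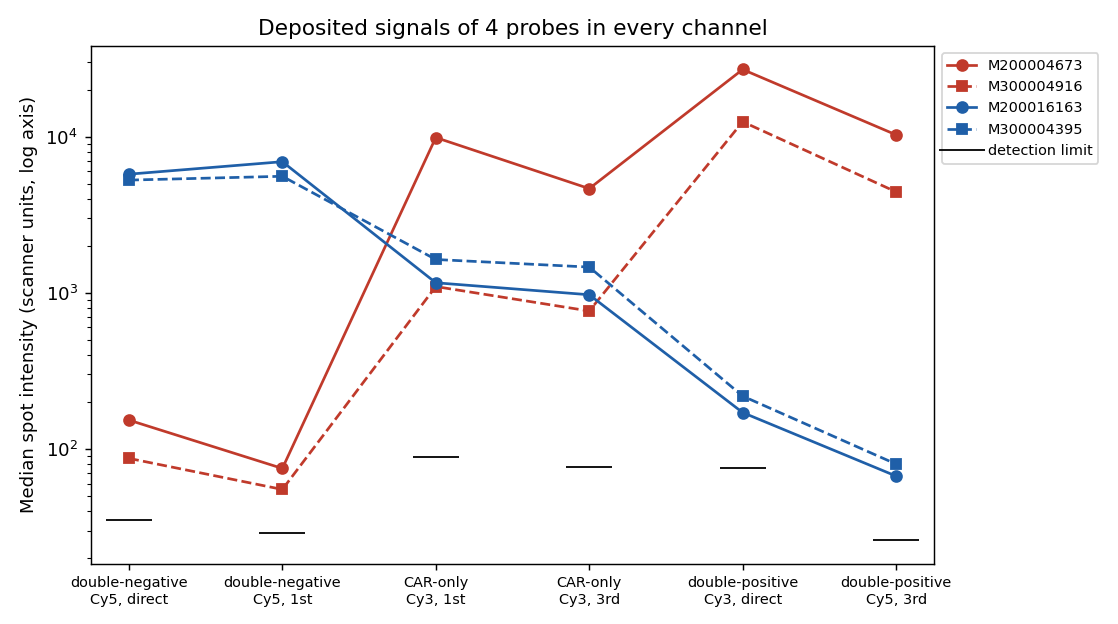
Deposited median spot intensity (vertical log axis, scanner units) of 4 probes in the 6 channel measurements of the series, ordered by population, with dye and array under each. M200004673 and M300004916 (red) climb from 153 and 87 in double-negative to 26971 and 12479 in double-positive cells on the direct array, M200016163 and M300004395 (blue) fall from 5756 and 5275 to 171 and 218, and the black bars are the detection limits.

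The 15 highest and 15 lowest probes of this ranking extended the same picture. The 15 higher probes had direct log2 ratios from 3.83 to 6.39, with Cy3 signals of 1937 to 27117 against Cy5 signals of 45 to 317. The 15 lower probes had direct ratios of 3.98 to 5.87 in size, with Cy5 signals of 912 to 5756 against Cy3 signals of 78 to 218. Some dim sides were close to the limit, which was 76 in Cy3 and 35 in Cy5 on the direct array. The lower probe with 78 had 27 on the third array, where the limit was 26. Its direct log2 ratio was -4.29 here and -6.94 in the authors' deposited table. Agreement of the routes differed between the 2 sets. For the lower probes 14 of 15 had routes within 0.5 of each other. For the higher probes 7 of 15 did, and the median of the indirect minus the direct ratio was 0.58. The widest gap, 1.82, belonged to the third-ranked higher probe, whose double-negative signal was 244 in Cy5 on the direct array and 65 in Cy5 on the first. The higher probes lay in 13 of the 24 print blocks and the lower probes in 10.

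The CAR-only pool, which shares CAR with one side of this comparison and the lack of PDGFRα with the other, had a level between the other pools for all 30 ranked probes. Its position differed widely from probe to probe. With double-negative cells at 0 and double-positive cells at 1 on the log2 scale, and taking both steps from the first and the third array, it ranged from 0.01 to 0.85 over the higher probes, with a median of 0.56. Over the lower probes it ranged from 0.17 to 0.92, with a median of 0.54. A position near 0 means that CAR-only cells had the level of double-negative cells, and one near 1 the level of double-positive cells. At 2-fold, the third pool lay between the others for 531 of 565 higher probes and 424 of 512 lower probes measured in all pools. At 4-fold, it lay between the others for 146 of 146 higher probes and 120 of 144 lower probes. Of the 24 remaining lower probes at 4-fold, 16 had a level in CAR-only cells at or above that of double-negative cells and 8 at or below that of double-positive cells. Probes chosen for a large difference between a pair of pools tend to place another pool in between, so these shares are a description.

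**Figure D5:**
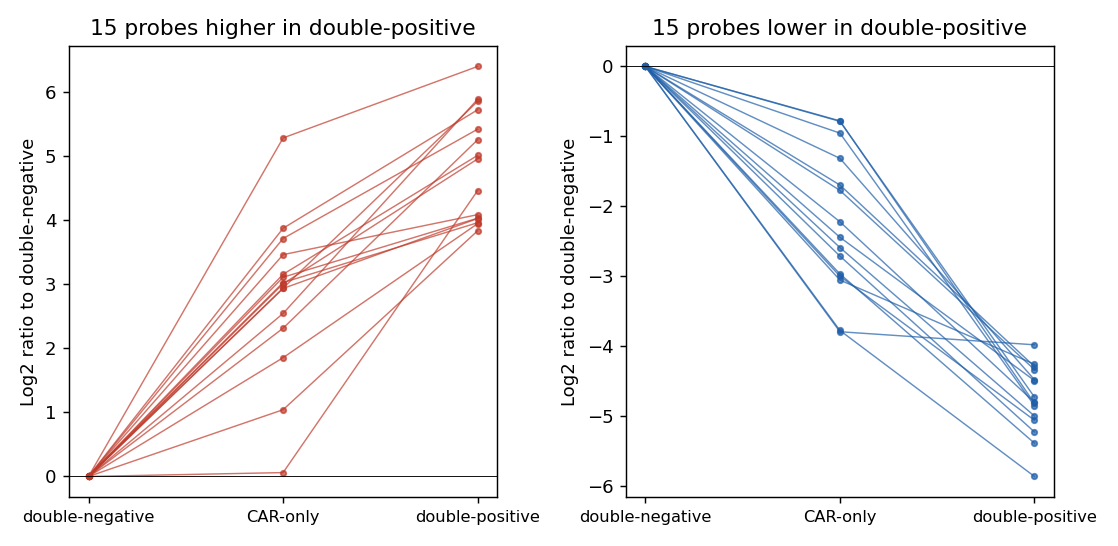
Log2 ratio to double-negative cells (vertical axis) in the 3 populations for the 15 highest (left) and 15 lowest (right) ranked probes, 1 line a probe, from the first array for CAR-only and the direct array for double-positive cells. The middle point of every line lies between its ends, but on the left it is as low as 0.06, close to double-negative cells. The lines end between 3.83 and 6.39 on the left and between -3.98 and -5.87 on the right.

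Some probes had signal in one population and none above the limit in the other, on every array that holds it. There were 1239 such probes for double-positive cells, 8.49% of the 14599, and 299 for double-negative cells, 2.05%. For these the dim side gives only a bound, taken on the direct array as the higher of the probe's own signal and the lowest signal above the limit. Most of the 1239 lay close to the limit: their median bound was 1.07-fold, and for 422 no bound above 1-fold could be given. Bounds of at least 4-fold were reached by 59 of them, and the largest difference was at least 33.3-fold. For the 299 probes the median bound was 1.67-fold, 31 reached at least 4-fold, and the largest was at least 18.6-fold. The direct array also had more probes above the limit in Cy3 than in Cy5, and the part of the dye in these counts was not tested. Where both populations carried Cy5, on the third and the first array, 1379 probes were above the limit in double-positive cells alone and 758 in double-negative cells alone. Those arrays were scanned in separate runs, so population and array cannot be told apart in the last pair of numbers.

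The differing probes were spread over the chip and over the groups of identifiers. In each of the 24 print blocks between 7.24% and 13.1% of the probes above background in either population were counted at 2-fold. The median direct log2 ratio per block ranged from -0.01 to 0.04. Identifiers that begin with M2 had 71.8% of their probes above background in either population, those with M3 64.1% and those with M4 51.7%. Of the probes above background, the share counted at 2-fold followed the same order, with 12.6% for M2, 8.92% for M3 and 7.70% for M4. What separates these groups of identifiers was not analysed here.

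At the probes counted here that had a value, the ratios that the authors deposited for this array had the same directions and a larger median size. The authors' deposited table holds a log2 ratio for 14866 of the probes kept here, from -7.14 to 7.70. All 12382 probes above the limit in both dyes of the direct array had a value in the authors' deposited table. By these deposited ratios of the direct array alone, without the indirect route or the background limit, 1429 probes were at least 2-fold higher in double-positive cells and 1393 lower. At 8-fold these direct ratios gave 206 higher and 299 lower. Under the counting rule used here, the authors' deposited ratios gave 1203 higher and 1116 lower at 2-fold, and 187 and 232 at 8-fold. Of the 1462 probes counted here at 2-fold, 1307 had a value in the authors' deposited table, and its sign was the same for all 1307. Those probes were chosen for large ratios on the same array, so a shared sign was largely set by the choice. The median size of these 1307 ratios was 1.61 on the log2 scale here and 2.45 in the authors' deposited table. The 30 ranked probes were larger in the authors' deposited table without exception, at 4.35 to 6.78 for the higher and 5.11 to 6.94 in size for the lower probes.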

How the data were processed

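Median spot intensities of the 3 arrays were used as deposited. Per the file headers these intensities were read at 635 nm (Cy5) and 532 nm (Cy3), with no background or normalisation step recorded. The authors also deposited normalised log2 ratios per probe, whose direction the labels give. The sources used here do not say how those were normalised.

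Both channels were corrected with normexp (offset 50) on all spots and then by loess per array in limma 3.58.1 under R 4.3.3. Controls and flagged spots had a weight of 0 in the loess. Spots of a probe were averaged. Bounds used the channels after loess and Aquantile. Counts required the direct and the indirect ratio to reach the threshold in 1 direction, above background in either population. The design planned gene lists, which were not used because probes were matched to no gene. Probes were named by rank, at most 2 a direction. The scripts were tested on simulated spots. Alternatives covered background, normalisation, detection and route. The number of arrays limits the precision. The comparison, the thresholds and the probe rule were chosen with earlier results of these data known.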

Additional observations from a re-analysis of the deposited data

Results flagged for a closer look

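The positive control spots enter no comparison, and their signals were above those of the empty spots. Positive control 2 had a median log2 ratio of 0.26 over its 24 spots on the direct array, and 0.12 by the indirect route. Positive control 3 had a median log2 ratio of -0.71 over 24 spots, and -0.26 by the indirect route. Its median signals, 22102.5 in Cy3 and 23934.5 in Cy5, were in the range where the brightest 1% of the probes also had direct ratios below 0. The labels do not say what these controls are.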

How the results depend on the processing

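The 4 named probes kept their direction in the 8 other settings that gave them a value. The log2 ratio of M300004916 moved most, from 3.93 to 8.64. The number of probes counted depended on the background step. Counts of higher and lower probes at 2-fold, 4-fold and 8-fold were 1192 and 1022, 428 and 370, and 165 and 151 with an offset of 10. They were 1437 and 1185, 641 and 537, and 302 and 273 with the blank-spot median subtracted. They were 452 and 409, 115 and 101, and 24 and 29 with local background in normexp. The authors' deposited log2 ratios gave 1203 and 1116, 465 and 494, and 187 and 232. Subtracting the local background gave 1016 lower probes at 2-fold, 386 and 392 at 4-fold, and 160 and 163 at 8-fold. Without background correction 114 probes were at least 8-fold higher. Restricting to the 12162 probes above background in both populations left 146 higher and 144 lower at 4-fold. At 8-fold it left 37 higher and 54 lower. The share of higher probes at 2-fold stayed between 50.8% and 57.3%. Of the 1462 probes, 323 higher and 290 lower were counted in all 7 settings of background, normalisation and source. The robust SD between routes was 0.654 with local background subtracted, 0.328 with local normexp and 0.287 with median centring. Median centring left the probes measured in both populations at a median direct log2 ratio of 0.24, against -0.01 with loess. On the direct array alone 3185 probes had signal above the limit in double-positive and not in double-negative cells. In Cy5 on the other arrays, a setting chosen after seeing the data, 758 probes were above it in double-negative cells alone. The causes were not tested. Gene lists were not run. The offset shrinks the ratios of dim probes. The similar spread between routes over the brightness bins therefore does not show that dim ratios are as certain as bright ones. No paired analysis was possible because each pair of populations has 1 array.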
